A study of Mus musculus with 10 samples.

Results

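The metallothioneins Mt1 and Mt2, the metal-sensing transcription factor Mtf1 and 7 zinc transporters (Slc30a1, Slc30a10, Slc39a1, Slc39a4, Slc39a5, Slc39a8 and Slc39a14) were followed in livers of mice with and without the thyroid hormone receptor Thrb in hepatocytes. These 10 genes, of 55401 gene identifiers in the count tables, were grouped because Mt1 had been seen to be lower in the knockout livers. The genes were thus chosen by the genotype difference in Mt1, which is given with its values and fitted size but without a p. 9 of the 10 genes passed the filter on low counts and entered the fit across 12234 genes, and Mt2 did not.

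Bulk liver RNA was sequenced from 5 wild-type (WT) mice and 5 Thrb hep-/- mice, labelled THRB-KO and described as littermates. The deletion acted in hepatocytes, through a loxP-flanked Thrb gene and a Cre recombinase driven by Afp regulatory sequence, per the mouse line the study refers to. All mice had standard chow and water freely and received no treatment, and the age and sex of these 10 mice were not given in the sources used here. The sample titles give the strain as C57Bl6/J, whereas the strain field reads C56Bl6/J. Each library was taken as 1 mouse, which the labels number but do not describe further, so the p-values measure the spread between these liver samples.

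Metallothioneins are small cysteine-rich proteins that bind zinc and copper and whose genes are induced by metals, glucocorticoids and inflammatory cytokines. MTF1 senses free zinc and binds metal response elements, short promoter motifs present in several copies in metallothionein genes and in Slc30a1. The SLC30 (ZnT) proteins move zinc out of the cytosol and the SLC39 (ZIP) proteins move it in. In liver, SLC39A14 is a main route of zinc, manganese and iron uptake and SLC30A10 exports manganese.

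Mt1 and Mt2 lie side by side on the plus strand of chromosome 8, Mt2 at chr8:94172664-94173568 and Mt1 at chr8:94179082-94180327 (GRCm38), with 5513 bases between them. Mt3 and Mt4 lie upstream in the same orientation. Because MTF1 acts through metal response elements, the cores of this element (TGCACNC and TGCGCNC, searched on both strands) were located in RefSeq promoter windows of GRCm38.p6, which span 250 bases before to 50 bases after a transcript start. Windows were given for 8 of the 10 genes, and Slc39a4 and Slc39a14 had none. For Mt1 and Mt2 the window was joined to the annotated leader up to the start codon, since both annotated starts lie upstream of the TATA box (TATAAA), by 121 bases for Mt1 and 135 bases for Mt2.

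The sites are shown as 23 bases read 5′ to 3′ on the strand that holds the core, with the 7 bases of the core in capitals. A relation of the number of cores to the genotype differences was not tested, and the 3 cores of Slc30a10 are not shown. All 5 cores of the Mt1 region lie upstream of its TATA box. The first lies upstream of the annotated transcript, and the other 4 lie in the first exon, within the untranslated leader as annotated. For Mt2 the copy nearest to its TATA box is shown, and for Slc30a1 both copies.
Mt1 core 1: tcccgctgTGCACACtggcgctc
Mt1 core 2: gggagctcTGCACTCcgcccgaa
Mt1 core 3: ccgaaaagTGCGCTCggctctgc
Mt1 core 4: aaagggttTGCACCCagcaggcg
Mt1 core 5: aaacccttTGCGCCCggactcgt
Mt2 core 7: ggagctttTGCGCTCgacccaat
Slc30a1 core 1: ctttgcttTGCACTCggaacccc
Slc30a1 core 2: gcggcgacTGCGCTCggcccgga

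On GRCm38 the Mt1 sites are at chr8:94179058-94179080, chr8:94179083-94179105, chr8:94179101-94179123, chr8:94179165-94179187 and chr8:94179179-94179201, the fourth on the minus strand and the others on the plus strand. The Mt2 site is at chr8:94172721-94172743 on the plus strand. The Slc30a1 sites are at chr1:191906730-191906752 and chr1:191906803-191906825, both on the minus strand of a gene that runs on the plus strand.

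The Mt1 region of 472 bases held 5 cores and the Mt2 region of 480 bases held 7. Of 32851 promoter windows of 300 bases, 25.7% held at least 1 core, 1.97% held at least 3 and 0.517% held at least 4. The 300-base windows alone held 3 cores for Mt1 and 4 for Mt2. Slc30a1 had 2 cores, Slc30a10 had 3, of which a pair overlap on opposite strands, Slc39a5 had 1 in 1 of its windows and Slc39a8 had 1 in 1 of its windows. The windows of Slc39a1 and Mtf1 held neither core. In the first 229 transcript bases, the length of the Mt1 leader, 0.155% of 58527 protein-coding transcripts held as many cores as the 4 of Mt1. In the first 184 bases, the length of the Mt2 leader, 0.515% of 58654 held as many as the 3 of Mt2. Both leaders are as annotated and include the TATA box, and the cores counted in them lie upstream of it. A match to these letters is a description of the sequence and no measure of binding.

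**Figure D1:**
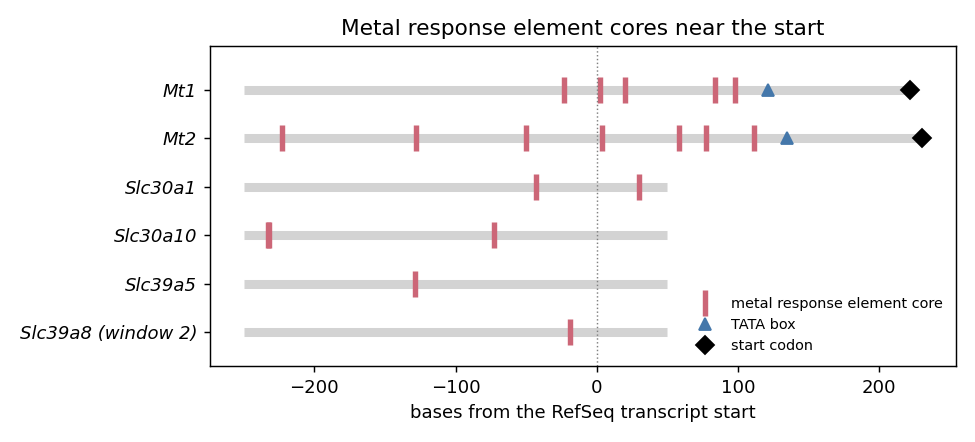
Positions of metal response element cores (bars) along the promoter regions of 6 genes, with the x axis in bases from the RefSeq transcript start, grey lines for the sequence searched, triangles for the TATA box and diamonds for the start codon. Mt1 shows 5 cores in 472 bases and Mt2 shows 7 in 480 bases, all before the TATA box. The other 4 genes were searched over the shorter promoter window only and show 1 to 3. In the promoter window alone Mt1 holds 3 cores, as many as Slc30a10, and Mt2 holds 4.

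The libraries held 26477195 to 28590704 counts each, and 3 counts corresponded to 0.105 to 0.113 counts per 1000000 counts (CPM), the unit of the levels below, which were scaled by TMM. Thrb itself was 32.5 to 34.2 CPM in WT and 24.9 to 28.8 CPM in Thrb hep-/- livers (log2 fold change -0.32, SE 0.07, adjusted p = 0.036 by the edgeR quasi-likelihood test). Whole-gene counts include exons outside a deleted segment. Dio1, the deiodinase gene that T3 induces in liver, fell by 3.03 on the log2 scale (adjusted p = 1.3e-05), and the lipogenic gene Thrsp was 381 to 1900 CPM in WT against 151 to 487 CPM (log2 fold change -1.28, adjusted p = 0.30). Me1, the cytosolic malic enzyme, was higher by 0.79 (adjusted p = 0.065). The hepatocyte markers Alb, Ttr, Apoa1 and Serpina1a summed to 74068 CPM or more in every library, and none of the 4 passed an adjusted p of 0.15.

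Mt1 levels were lower in most Thrb hep-/- livers. The level was 348, 323, 76.1, 272 and 391 CPM in WT replicates 1 to 5. In Thrb hep-/- replicates 1 to 5 it was 30.2, 72.9, 16.7, 12.2 and 88.2 CPM. The groups overlapped through 1 WT mouse: replicate 3, at 76.1 CPM, lay below Thrb hep-/- replicate 5, and the other 4 knockout livers lay below every WT liver. The means were 282 ± 123 CPM in WT and 44.0 ± 34.4 CPM in Thrb hep-/- (SD, n = 5 each), a ratio of 6.41. The fitted log2 fold change was -2.68 (SE 0.64, 95% interval -4.12 to -1.25). These values rest on 2129 to 10460 reads per WT library and 368 to 2493 per knockout library, so counting error is small beside the spread between mice. No 50-base stretch of the Mt1 transcripts occurred in another annotated gene.

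Mt2, the second hepatic metallothionein, was detected at a far lower level. It had 65, 51, 19, 43 and 43 counts in WT replicates 1 to 5 (2.46, 1.78, 0.68, 1.68 and 1.61 CPM). In Thrb hep-/- replicates 1 to 5 it had 3, 10, 3, 2 and 10 counts (0.10, 0.37, 0.10, 0.07 and 0.35 CPM). Every knockout liver lay below every WT liver, and 3 of the 5 knockout libraries were at or under 3 counts. Means were 1.64 ± 0.64 CPM and 0.20 ± 0.15 CPM (SD, n = 5 each), a log2 ratio of -3.03. Mt2 reached 1 CPM in 4 libraries, all WT, and so was not tested. A looser filter would admit it only through the group in which it is high. The counting also bears on its level: 432 of its 588 exon bases (73.5%) overlap Gm45774, a gene on the opposite strand in the GENCODE M21 annotation, and strand was not used and ambiguous reads were not counted. Gm45774 itself had 0 to 10 counts per library. By this annotation only the 156 exon bases that are not shared could collect Mt2 counts, in either genotype. Whether the overlap is the same in the Ensembl release on which the reads were counted was not checked here.

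WT replicate 3 had the lowest Mt1 and the lowest Mt2 among the WT livers, and Thrb hep-/- replicates 2 and 5 had the highest Mt1 and the highest Mt2 among the knockout livers. Over the 5 WT livers Mt1 ranged 5.14-fold and Mt2 3.62-fold, and over the 5 knockout livers 7.24-fold and 5.66-fold.

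**Figure D2:**
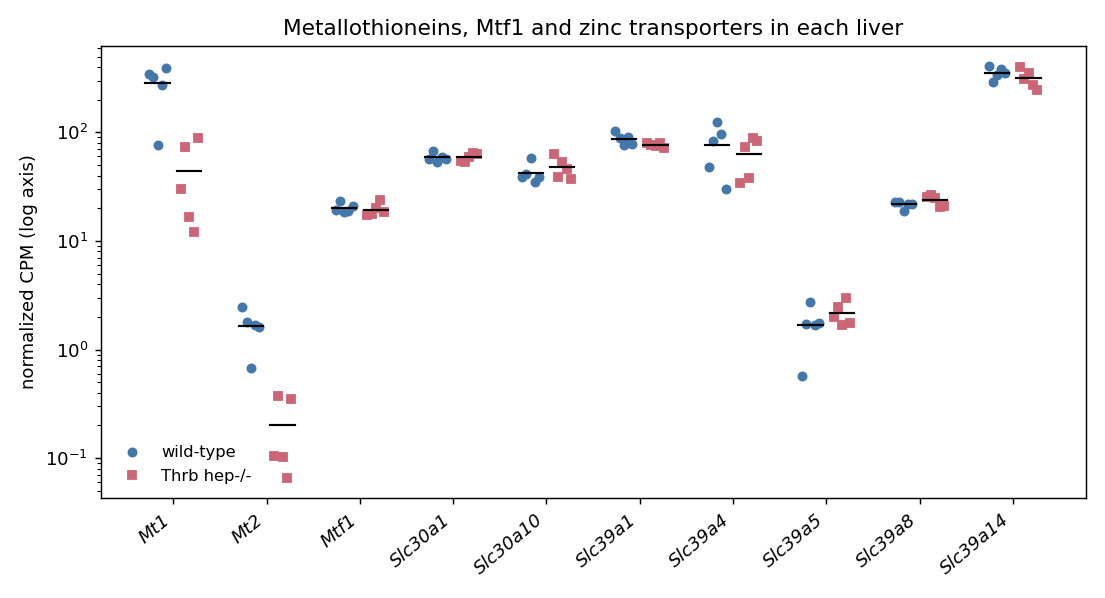
Normalized CPM (log y axis) of the 10 genes in each liver, with circles for the 5 WT and squares for the 5 Thrb hep-/- libraries and a line at each group mean. The knockout points lie below WT for Mt1, where WT replicate 3 at 76.1 CPM overlaps them, and for Mt2 without overlap, while the points of the other 8 genes overlap.

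Mtf1, which encodes the zinc sensor that drives metallothionein transcription, was 19.5, 23.5, 18.6, 18.9 and 21.0 CPM in WT and 17.4, 17.5, 20.1, 23.9 and 18.4 CPM in Thrb hep-/- livers. The groups overlapped, with means of 20.3 ± 2.0 and 19.5 ± 2.7 CPM (SD, n = 5 each). The log2 fold change was -0.06 (SE 0.10, 95% interval -0.28 to 0.17, adjusted p = 0.88). A part of the Mtf1 transcript in the genotype difference of Mt1 was not tested.

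Among the exporters, Slc30a1, the plasma membrane zinc exporter that is itself an MTF1 target, was 57.1, 67.5, 52.9, 59.5 and 56.7 CPM in WT. It was 54.6, 53.7, 59.6, 64.0 and 63.1 CPM in Thrb hep-/- livers. The groups lay in the same range, and the log2 fold change was 0.0064 (SE 0.08, 95% interval -0.17 to 0.18, adjusted p = 0.98). Slc30a10, the manganese exporter, was 38.8, 41.3, 58.7, 35.2 and 39.1 CPM in WT and 63.4, 39.0, 53.0, 46.1 and 37.5 CPM in Thrb hep-/- livers. WT replicate 3 stood above the other WT livers in this gene, and the groups overlapped (log2 fold change 0.17, SE 0.17, 95% interval -0.20 to 0.53, adjusted p = 0.73).

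Among the importers, Slc39a14, which is known to be induced in liver by inflammation, was the most abundant per CPM. It was 405, 290, 339, 385 and 350 CPM in WT and 404, 307, 351, 276 and 248 CPM in Thrb hep-/- livers. A pair of knockout livers lay below every WT liver, and the log2 fold change was -0.16 (SE 0.14, 95% interval -0.45 to 0.14, adjusted p = 0.67). Slc39a8, its closest relative, was 23.0, 22.8, 19.1, 22.0 and 22.1 CPM in WT and 25.5, 26.3, 25.1, 20.6 and 20.9 CPM in Thrb hep-/- livers. Here 3 knockout livers lay above every WT liver, and the log2 fold change was 0.12 (SE 0.09, 95% interval -0.08 to 0.32, adjusted p = 0.62).

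Slc39a1, a widely expressed plasma membrane importer, was 103, 89.5, 76.7, 89.9 and 77.8 CPM in WT and 79.9, 76.2, 75.4, 79.6 and 71.5 CPM in Thrb hep-/- livers. 3 knockout livers lay below every WT liver. The log2 fold change was -0.19 (SE 0.09, 95% interval -0.38 to -0.0045), with an unadjusted p of 0.045 and an adjusted p of 0.36 in edgeR. A share of 21.8% of its 50-base stretches also occurs in the pseudogene Slc39a1-ps.

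Slc39a4, the importer of dietary zinc in the intestine, varied widely between livers of one genotype. It was 48.4, 82.5, 126, 97.1 and 30.0 CPM in WT and 34.2, 73.9, 38.2, 88.7 and 83.4 CPM in Thrb hep-/- livers. All knockout values lay inside the WT range, and the log2 fold change of -0.27 had an SE of 0.41 (95% interval -1.19 to 0.65, adjusted p = 0.84). Slc39a5, a zinc importer of the basolateral membrane of polarised epithelia, was near the detection limit, with 15 to 77 counts in WT and 49 to 91 counts in Thrb hep-/- libraries. It was 0.57, 1.71, 2.75, 1.68 and 1.76 CPM in WT and 1.98, 2.48, 1.68, 3.01 and 1.77 CPM in Thrb hep-/- livers (log2 fold change 0.36, SE 0.32, 95% interval -0.32 to 1.05, adjusted p = 0.67). The intervals of these 2 genes were the widest among the 8 transporter and sensor genes. Differences in either direction within those bounds are compatible with the values.

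**Figure D3:**
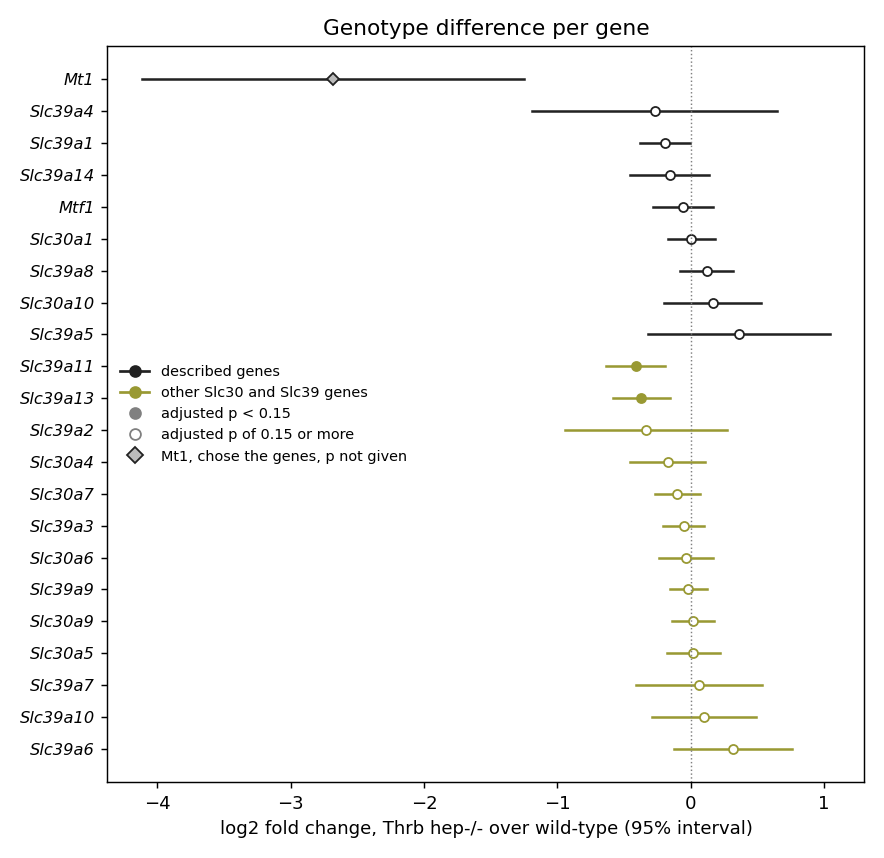
Log2 fold change of Thrb hep-/- over WT livers (x axis, 0 marked by a dotted line) with its 95% interval, for the 9 genes of the set that entered the fit (black) and the 13 other Slc30 and Slc39 genes (olive), with filled circles for an adjusted p under 0.15. Mt1, drawn as a diamond because it chose the genes and its p is not given, lies at -2.68, and among the others only Slc39a11 at -0.41 and Slc39a13 at -0.37 are filled.

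Over all 12234 genes tested, 4.08% passed an adjusted p of 0.15, the threshold of the study, 2.57% as lower and 1.51% as higher in Thrb hep-/- livers. Leaving aside Mt1, which chose the set on this contrast, none of the 8 other genes tested passed it by the edgeR test, none passed an adjusted p of 0.05, which 1.35% of all genes passed, and 1 of the 8 (Slc39a1) had an unadjusted p under 0.05. None of the 8 passed 0.15 in any of the 19 alternative fits, DESeq2 and limma-voom included. The median log2 fold change of the other 8 was -0.03, with values from -0.27 to 0.36, beside a median of 0.00054 over all genes. Genotypes did not overlap for 3.64% of all genes tested, 2.26% being lower in Thrb hep-/- livers, and for none of these 9.

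The rest of the metallothionein, Slc30 and Slc39 families comprised 19 genes, of which 13 were tested. Of these, 2 fell, none rose and 11 did not pass the test, beside 2.57% lower and 1.51% higher of all genes tested. Their median log2 fold change was -0.04. Slc39a11, a zinc importer found on intracellular membranes, was 40.5, 42.8, 32.2, 38.6 and 34.5 CPM in WT and 24.9, 33.2, 26.6, 26.3 and 30.7 CPM in Thrb hep-/- livers. Only WT replicate 3 and knockout replicate 2 overlapped (log2 fold change -0.41, SE 0.10, adjusted p = 0.074). Slc39a13, which releases zinc from vesicles and the Golgi, was 10.7, 10.6, 11.4, 9.42 and 11.9 CPM in WT and 9.14, 7.20, 7.89, 8.31 and 9.27 CPM in Thrb hep-/- livers. Its groups did not overlap (log2 fold change -0.37, SE 0.10, adjusted p = 0.094). With these, the means differed 1.33-fold for Slc39a11 and 1.29-fold for Slc39a13, and neither passed an adjusted p of 0.05. Without WT replicate 2, or without knockout replicate 3 or 4, Slc39a11 did not pass 0.15 (log2 fold change -0.39 to -0.36), and Slc39a13 missed it without WT replicate 1, 2, 3 or 5 or without knockout replicate 3 or 4 (-0.37 to -0.33).

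Among the other Slc30 genes, Slc30a4 had a log2 fold change of -0.17 and Slc30a7, a transporter into the early secretory pathway, of -0.10. Slc30a6 was at -0.04, and Slc30a5 and Slc30a9 were at 0.02 each. Among the other Slc39 genes, Slc39a2 was at -0.34, Slc39a3 at -0.05, Slc39a9 at -0.02, Slc39a7 at 0.06, Slc39a10 at 0.10 and Slc39a6 at 0.32. The adjusted p of these 11 genes was 0.54 or more. The reading for Slc39a7 is limited in the same way as that for Mt2, since 80.7% of its exon bases overlap Gm20427 in GENCODE M21.

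Per kilobase of merged exon, Mt1 was the highest of the 10 genes in WT livers, at 226 ± 98.8 CPM per kb (SD, n = 5), and its range did not overlap the next gene. Slc39a1 followed at 37.0 ± 4.6, Slc39a14 at 33.5 ± 4.2 and Slc39a4 at 24.7 ± 12.3 CPM per kb, and the ranges of these neighbours overlapped, as did those of Slc39a4 and Slc30a1 at 11.2 ± 1.0. Slc30a10 was at 7.30 ± 1.58 CPM per kb, below the range of Slc30a1 and above that of the next gene. Further down, Slc39a8 at 2.84 ± 0.21, Mt2 at 2.79 ± 1.08 and Mtf1 at 2.28 ± 0.23 CPM per kb had overlapping ranges, and Slc39a5 was lowest at 0.762 ± 0.348. Over the 156 exon bases that GENCODE M21 leaves unshared, and only if the counting annotation has the same overlap, Mt2 came to 10.5 ± 4.1 CPM per kb in WT and 1.28 ± 0.97 in Thrb hep-/- livers. In Thrb hep-/- livers Mt1 was at 35.3 ± 27.6 CPM per kb, and its range of 9.78 to 70.8 took in those of Slc39a1 (mean 32.4) and Slc39a14 (mean 30.1). The merged exon of Mt1 is 1 block of 1246 bases over its whole annotated span, any introns included. That of Mt2 is 588 bases in 3 blocks. The level of Mt1 per kb is thus lowered by this length, which limits its comparison with the other genes.

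Mice of one genotype differed in the amount of Mt1 more than in nearly all other transcripts. The within-genotype SD of log2 CPM was 1.12 for Mt1, higher than in 99.6% of the genes tested, against a median of 0.19. Slc39a4 (0.75, 98.3%) and Slc39a5 (0.61, 96.5%) were also in the upper tail. Slc30a1 was among the steadier genes (0.12, 19.4%), and Mtf1 (0.17), Slc39a1 (0.13) and Slc39a8 (0.14) lay below the median, while Slc39a14 (0.24) and Slc30a10 (0.30) lay above it.

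Whether the other genes varied with Mt1 between mice was tested on deviations from the genotype mean, a measure that did not enter the choice of genes. Of 8 relations over 10 mice, none passed after adjustment. The strongest was Slc30a10, which was higher where Mt1 was lower: Pearson's r was -0.72 (exact permutation within genotype, two-sided, p = 0.039, Benjamini-Hochberg adjusted p = 0.31) and Spearman's rho was -0.82 (exact permutation p = 0.020, adjusted p = 0.16). Without the 2 mice farthest from the median of Mt1, WT replicate 3 and Thrb hep-/- replicate 4, r was -0.75. For Slc39a5 r was -0.43, for Slc39a8 0.41, for Mtf1 -0.30, for Slc39a4 -0.21, for Slc39a14 -0.17, for Slc39a1 0.11 and for Slc30a1 0.09, with adjusted exact permutation p of 0.72 or more. The corresponding rho values ran from -0.33 for Slc39a4 to 0.32 for Slc39a8 (adjusted exact permutation p of 0.84 or more). The relation with Slc39a8 rested on single mice, with r of 0.84 without Thrb hep-/- replicate 5 (adjusted exact permutation p = 0.025) and -0.44 without the 2 mice farthest in Mt1. For Mtf1, the gene of the sensor, r turned to 0.11 without Thrb hep-/- replicate 4.

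The genes whose deviations were most like those of Mt1, among 12234 tested, were Gm19680 (r = 0.94), Erg28 (0.94), Nufip2 (0.93), Stard3nl (0.93) and Arl5b (0.92), each over the same 10 mice, which share library and scaling. They are given as a description. None of the 5 differed between genotypes past the threshold, with log2 fold changes from -0.29 for Stard3nl to 0.03 for Erg28 and adjusted p of 0.34 or more.

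Metallothioneins are acute-phase genes of the liver, and 20 other acute-phase genes were listed with the lower level of such genes in these data already known. Of the 20, 13 fell, none rose and 7 did not pass the test, beside 2.57% lower and 1.51% higher of all genes tested. The median log2 fold change was -1.09, and 7 of the 13 passed an adjusted p of 0.05. Saa4, a serum amyloid A protein, fell by 1.25 on the log2 scale (SE 0.18, adjusted p = 0.0054). The lipopolysaccharide-binding protein gene Lbp fell by 0.81 (SE 0.15, adjusted p = 0.021), and the haptoglobin gene Hp by 1.33 (SE 0.25, adjusted p = 0.022). Hamp, the hepcidin gene, had a log2 fold change in the other direction of 0.81 (adjusted p = 0.33).

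The mean log2 CPM of these 20 genes was 9.82, 10.5, 9.06, 9.52 and 10.1 in WT replicates 1 to 5 and 8.59, 8.89, 7.95, 7.87 and 8.45 in Thrb hep-/- replicates 1 to 5. Every knockout liver lay below every WT liver, and WT replicate 3, lowest in Mt1 among WT, was also lowest in this mean. Within genotype, Mt1 and the acute-phase mean correlated over the 10 mice with r = 0.79 (exact permutation within genotype, two-sided, p = 0.012) and rho = 0.72 (p = 0.032, same permutation). This relation stands outside the 8 above and its p was not adjusted. Without the 2 mice farthest in Mt1, r was 0.55. Ranked by likeness to Mt1 among 12225 genes, the 20 ran from Serpina3n at rank 83 (r = 0.84) and Saa1 at rank 212 (0.78) to Socs3 (0.13) and Hamp (0.0028).

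With this mean as a covariate beside genotype, the log2 fold change of Mt1 was -0.18, and 8 genes passed in all. Genotype and the acute-phase mean cannot be told apart in these libraries. Among the zinc transporters under the same covariate, Slc39a11 was at -0.09 and Slc39a13 at -0.37, neither of them past the threshold.

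**Figure D4:**
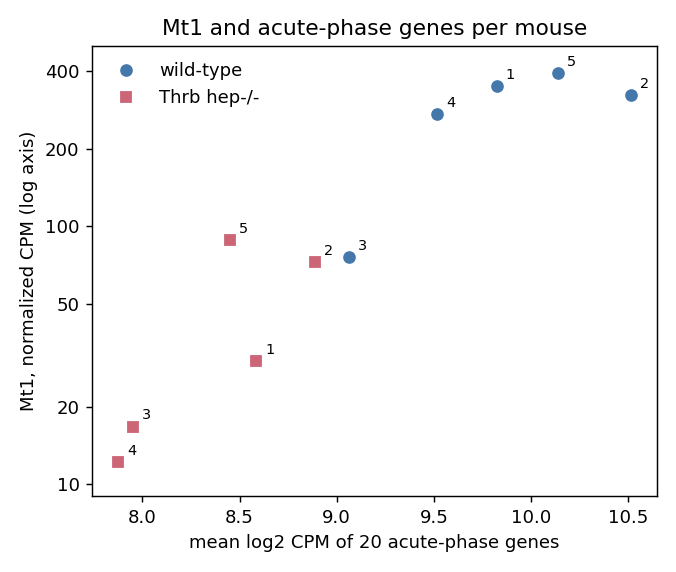
Mt1 (y axis, normalized CPM on a log axis) against the mean log2 CPM of 20 acute-phase genes (x axis), with 1 numbered point per mouse, circles for WT and squares for Thrb hep-/-. Deviations of both measures from the genotype mean correlate with r = 0.79, and WT replicate 3 lies next to Thrb hep-/- replicates 2 and 5 in Mt1.

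Glucocorticoids also induce metallothioneins. Of 9 genes known to respond to them none passed the threshold in either direction, beside 4.08% of all genes tested. Their median log2 fold change was -0.11, with SEs from 0.20 to 0.57 and 0 of 9 at an unadjusted p under 0.05 in edgeR. A part of glucocorticoids in the level of Mt1 was not tested. Cdkn1a was at -0.50 (adjusted p = 0.47), Tat, the tyrosine aminotransferase gene, at -0.29 (adjusted p = 0.64) and Per1 at -0.29 (adjusted p = 0.73). Of 11 copper-handling genes, 1 fell, none rose and 10 did not pass, where 4.08% of all genes tested passed in either direction. The one was Cp, encoding the copper-carrying plasma protein ceruloplasmin, at -0.52 (SE 0.15, adjusted p = 0.12). Ceruloplasmin is itself an acute-phase protein. With the acute-phase covariate the value of Cp was 0.14, and genotype and this covariate cannot be told apart in these libraries. Cp passed when WT replicate 3, WT replicate 4 or knockout replicate 2 was left out and missed the threshold without any of the other 7 mice (-0.53 to -0.38). Sco1, a copper chaperone of mitochondria, was at 0.22 and Sod1, the copper-zinc superoxide dismutase gene, at 0.21, with adjusted p of 0.34 and 0.46.

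In bulk liver, fewer cells of a type and less RNA per cell cannot be told apart. Of 8 leukocyte markers, 5 were tested. Their log2 fold changes were negative in 5 of 5, beside 6104 of all 12234 genes tested. S100a8 passed the threshold (log2 fold change -2.67, adjusted p = 0.13 by edgeR), at 0.66 to 6.01 CPM in WT and 0.10 to 1.08 CPM in Thrb hep-/- livers. Of the markers not tested, Cd3e and Cd79a had higher means in Thrb hep-/- livers (0.19 and 0.71 CPM against 0.10 and 0.55 CPM). Ly6g had a mean of 0.03 CPM in WT and 0 in Thrb hep-/- livers. The sum of the 8 leukocyte markers was 47.8 to 144 CPM in WT and 49.95 to 103 CPM in Thrb hep-/- livers, with Cd3e and Ly6g under 0.5 CPM in every mouse. WT replicate 3, lowest in Mt1, had the highest leukocyte sum, at 144 CPM. Of 5 stellate cell markers only Des passed the threshold, higher by 0.67 (adjusted p = 0.057), and their sums were 59.8 to 103 and 87.0 to 98.6 CPM. Sums of the 4 endothelial markers were 108 to 129 and 115 to 150 CPM, of the 4 cholangiocyte markers 5.80 to 9.73 and 4.53 to 7.16 CPM, and of the 3 erythroid markers 172 to 271 and 139 to 215 CPM, with no marker past the threshold. The 4 markers of pancreatic acinar cells, which also express Slc39a5 and Slc30a2, summed to 0.70 to 1.99 CPM in WT and 0.13 to 0.89 CPM in Thrb hep-/- livers. Cela2a alone was 0.70 to 1.54 CPM in WT and 0.10 to 0.39 CPM in Thrb hep-/- livers. Cpa1, Prss2 and Pnlip were under 0.5 CPM in every mouse. The part of the cell type markers in the levels of Mt1 and Mt2 was not tested.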

How the data were processed

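The authors mapped reads to mm10 (GRCm38) with HISAT2 2.2.1 and counted them per gene with HTSeq 0.9.1 on Ensembl release 102, in union mode without strand, with a minimum alignment quality of 10 and without ambiguous or multiply mapped reads. The deposited values are whole-number counts per gene, 1 file per library. The table of the authors' own edgeR 3.36.0 comparison, with fold changes and p-values, was not used.

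Libraries were grouped by the genotype in the labels. Symbols, exons and positions came from GENCODE M21, whose Ensembl identifiers were matched to the files. Of 55401 identifiers, 260 had no symbol. Genes reaching 1 CPM in 5 or more libraries were fitted with edgeR 4.0.16 in R 4.3.3 (TMM, robust quasi-likelihood F-test, no covariate), with Benjamini-Hochberg adjustment over all genes tested and a threshold of 0.15, after the study's methods. Reported CPM are TMM-scaled, and log2 CPM used a prior count of 2. Intervals are 95% intervals of the fit. Correlations between mice used deviations of log2 CPM from the genotype mean and all 14400 permutations of mice within genotype. The fit was tested on simulated counts. No pair of libraries agreed within sampling noise (lowest chi-square per degree of freedom 29.5). Counting limits cover counting error only.

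The genes and lists were chosen with earlier results of these data known. Named were all 10 genes, every tested gene of the same families, up to 3 genes of lowest unadjusted p in each other list, the 5 genes most like Mt1, Thrb and 3 thyroid hormone targets, with cell type markers as sums. Exceptions, chosen after their values were seen, are single markers, Hamp and the acute-phase genes placed by their rank. Alternatives were DESeq2 1.42.0, limma 3.58.1 with voom quality weights, other scalings and filters, no robust settings, a replicate block, an acute-phase covariate and leaving out each mouse.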

Additional observations from a re-analysis of the deposited data

Results flagged for a closer look

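In 4 of 60 groups of 5 libraries, 1 library stood apart from the other 4 by Dixon's criterion at the 95% level, where chance alone gives about 3. Slc30a10 was 58.7 CPM in WT replicate 3 and 35.2 to 41.3 CPM in the other WT livers. Slc39a8 was 19.1 CPM in the same mouse and 22.0 to 23.0 CPM in the other WT livers. Thrsp was 1900 CPM in WT replicate 5 and 381 to 551 CPM in the other WT livers. Thrb hep-/- replicate 2 held 27779196 counts in all, where the other knockout libraries held 28441288 to 28590704. WT replicate 3 is also the WT mouse with the lowest Mt1, although its Mt1 level did not meet the criterion.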

How the results depend on the processing

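The number of the 10 genes past an adjusted p of 0.15 is a description only, since Mt1 chose the set and Mt2 enters looser filters through the WT group alone, and no other gene of the set was ever counted in it. It was 1 (Mt1), 2 with filterByExpr (Mt1 and Mt2) and 1 without a filter, where Mt2 passed and Mt1 did not. At a threshold of 0.05 it was 0, and with the acute-phase covariate it was 0. When 1 mouse was left out it was 0 to 1, and 0 without WT replicate 2, WT replicate 5 or Thrb hep-/- replicate 3. Mt1 was lower in all 19 alternatives, with a log2 fold change of -2.69 without a filter, -0.18 with the acute-phase covariate and -3.10 to -2.44 with 1 mouse left out, and -2.63, -2.54 and -2.47 without the 3 mice just named. Where Mt2 could be fitted its log2 fold change was -3.03 to -3.04. The sign changed for 5 genes. Mtf1 ran from -0.14 to 0.0029 and Slc30a1 from -0.030 to 0.064 with 1 mouse left out, Slc30a1 was -0.00012 without a filter, and with the acute-phase covariate Slc30a10 was -0.18, Slc39a5 -0.087 and Cp 0.14. Slc39a11 kept its call in 15 of 19 alternatives, Slc39a13 in 11 and Cp in 11. Thrb was lower in all 19 and past the threshold in 18, all but the acute-phase covariate. The causes of these changes were not tested. The genes called were 499 of 12234, 885 with DESeq2, 849 with limma-voom, 8 with the acute-phase covariate and 222 to 665 with 1 mouse left out.

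Correlations with Mt1 within genotype changed sign for Slc30a1 (-0.24) and Slc39a1 (-0.30) on total counts, for Slc39a1 by rank (-0.067), and without the 2 farthest mice for Slc39a1 (-0.24), Slc39a4 (0.44), Slc39a5 (0.11) and Slc39a8 (-0.44). With 1 mouse left out r ran from -0.62 to 0.11 for Mtf1, -0.27 to 0.36 for Slc30a1, -0.31 to 0.31 for Slc39a1, -0.41 to 0.10 for Slc39a4, -0.39 to 0.15 for Slc39a14, 0.14 to 0.84 for Slc39a8, -0.55 to -0.16 for Slc39a5 and -0.86 to -0.55 for Slc30a10, which stayed negative in all 15 alternatives.

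Replicate numbers occur in both genotypes but do not pair the mice, since same-numbered libraries had correlated deviations of only -0.20 to 0.0091. With the replicate number as a block, 348 genes passed, Mt1 had a log2 fold change of -2.87, and Slc39a13, at -0.37, no longer passed (adjusted p = 0.17).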

Other observations

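The 6 family genes that were not tested did not reach 1 CPM in 5 libraries. Mt4 had no count in any library, which allows up to 0.105 to 0.113 CPM per library, and Mt3, the brain metallothionein, reached 0.04 CPM in 1 WT library and was at 0 in the others. Slc39a12 was 0 to 0.07 CPM in WT and 0.10 to 0.21 CPM in all 5 Thrb hep-/- livers, a level at which 3 counts are about 0.11 CPM. Slc30a8, the zinc transporter of insulin granules, was under 0.20 CPM in every library. Slc30a2, a zinc transporter of secretory vesicles, was 0 to 0.39 CPM in WT and 0.14 to 0.59 CPM in Thrb hep-/- livers. Slc30a3, which loads zinc into synaptic vesicles, was 0.26 to 0.87 CPM in WT and 0.15 to 2.45 CPM in Thrb hep-/- livers, with 1.89 and 2.45 CPM in knockout replicates 3 and 4.

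Of the other motifs searched on both strands of the RefSeq windows, the direct repeat of AGGTCA with a spacer of 4 bases that thyroid hormone receptors bind (in 0.0152% of 32851 windows) and the STAT element TTCNNNGAA (8.3%) were in none of the 10 windows of the 8 genes. The single half-site AGGTCA (16.3% of windows) was in both windows of Slc39a8. The antioxidant element TGACNNNGC (12.4%) was in a window of Slc30a1, Slc39a1, Slc39a5, Slc39a8 and Mt2, once in each apart from Slc39a5, which had 2 copies. For Mt1 and Mt2 the window ends 50 bases after the annotated start, upstream of the TATA box. The sequence from there to the start codon was not searched for these other motifs.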
